A study of Homo sapiens with 7 samples.

Results

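GPBP1 and its paralog GPBP1L1 contributed 10 of the 4013 intervals in a list of RNA sites bound by eIF3a, 3 in GPBP1 and 7 in GPBP1L1. The members were chosen by their position on hg19: intervals on the plus strand of chromosome 5 that overlapped 56469700 to 56560510 (GPBP1), and intervals on the minus strand of chromosome 1 that overlapped 46092970 to 46153900 (GPBP1L1). The gene pair itself was chosen by measured values, namely the contrast between 1 long read cluster and many short ones. Cluster lengths, read numbers, scores and read starts are therefore given below as a description, with no test.

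PAR-iCLIP of eIF3a was done in HEK293T, an SV40 T-antigen derivative of the embryonic kidney line HEK293. Cells took up 4-thiouridine for 8 h, were irradiated with ultraviolet light of 354 nm, and eIF3a was immunoprecipitated with the RNA joined to it. The labels describe 2 replicates with no treatment named beyond this labelling, and the single list does not keep them apart, so no value below has a replicate error. The series held 5 further samples on N6-methyladenosine in HEK293T and HepG2, which were not analysed here.

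eIF3 is the largest of the initiation factors that prepare the small ribosomal subunit for an mRNA, and eIF3a is its scaffold subunit. Besides this general role, eIF3 is known to contact particular mRNAs directly, often in their 5' untranslated regions. GPBP1, also called vasculin, is a nuclear protein that binds GC-rich promoter sequences and regulates transcription. GPBP1L1 is the related protein encoded by a separate gene and is far less studied.

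The windows of RefSeq around annotated transcription starts, on GRCh38.p14, are shown because the paralogs share a stretch there that the choice of members did not use. RefSeq gave 3 such windows for GPBP1 and 1 for GPBP1L1, each with 250 bases before the start and 50 after it. The longest run of bases common to windows of the pair was 12 bases long, printed in capitals:
GPBP1: gggtcggcGCCATTTTGGGActgagact
GPBP1L1: gccgggcaGCCATTTTGGGAagagcttt
The run began 19 bases into the transcribed side in GPBP1, counting the start as 1, and 4 bases into it in GPBP1L1. It was present, on either strand, in 9 of 35116 start windows of all genes (0.0256%). This count includes windows of the pair, from which the run was picked as the longest match, so its rarity is no independent result. The run holds GCCATNTT, the core recognised by the transcription factor YY1, which was found on either strand in 2310 windows (6.58%). These windows were matched by gene symbol and were not placed on hg19, so no cluster was set against them. The run was noticed after the sequences were compared and is a description of letters, not of a bound site.

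The list gave for each interval a score, which is the highest read coverage of the cluster, and the coverage along the cluster. Each profile could be divided exactly into reads of 25 nt, so a cluster's reads are the summed coverage divided by 25. Of 36851 occupied read starts, 36841 held 1 read, so read numbers are in effect numbers of distinct starts. With 1 read per start, coverage cannot exceed 25, and the highest score of the list was 24. Reads, densities and scores below are therefore no measure of read abundance. The list held 3566 clusters on the primary chromosomes, with a median of 6 reads, a median length of 61 nt and a median score of 5. Library depth is unknown, and so is the RNA level of either gene, so reads per length are no measure of how strongly eIF3a bound. All 10 members were listed at their full length and none was a repeat of another. Positions are those of the file read as counting from 0, printed from 1, and are uncertain by 1 nt because the profile of each of the 10 was 1 nt longer than its interval.

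The pair differed in where the reads lay. All 3 GPBP1 clusters were near the upstream end of the gene window, with 5' ends 187, 1579 and 2203 nt from it, in a window of 90811 nt. The 7 GPBP1L1 clusters lay together deep in the window, between 27035 and 27860 nt from its upstream end, which is 44.4% of the way through 60931 nt. No minus-strand interval was listed in the first 27 kb of the GPBP1L1 window. The list has filters that are not known, and this does not show that eIF3a was absent there. An hg19 annotation was not used here, so whether a cluster lies in an exon, an intron or an untranslated region was not analysed. RefSeq places 2 pseudogenes, RPS15AP10 and RPL7AP16, whose parents encode ribosomal proteins, inside GPBP1L1 and no other gene inside GPBP1. Whether the GPBP1L1 clusters coincide with those pseudogenes was not analysed here.

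**Figure D1:**
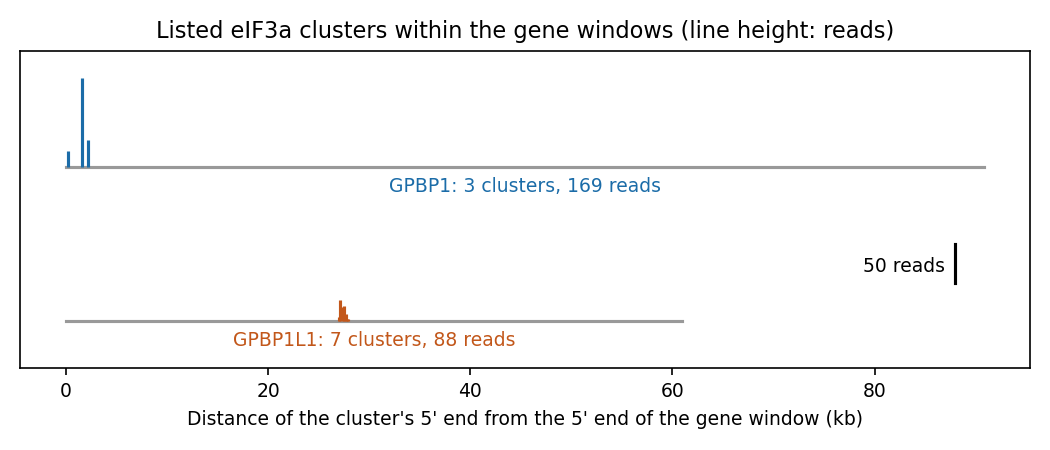
Positions of the 10 listed clusters within the gene windows, as the distance in kb of each cluster's 5' end from the upstream end of the window; line height gives reads. The GPBP1 clusters stand at the upstream end, and the 7 GPBP1L1 clusters form 1 group about 27 kb in.

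GPBP1 had the longest cluster of the list. Its cluster on chromosome 5 at 56471279 to 56471897 covered 620 nt with 115 reads and a score of 12, and held 68.0% of the 169 reads of the gene. Upstream of it, the cluster at 56469887 to 56470031 covered 146 nt with 20 reads and a score of 9. Downstream of it, the cluster at 56471903 to 56472206 covered 305 nt with 34 reads and a score of 7. By reads the long cluster had rank 3 in the list, whereas the downstream cluster had rank 174 by reads and rank 20 by length. The downstream cluster was long for its reads: 0 of the 30 other clusters with reads within 1 of its number were as long, and 2 of them scored 7 or less. Length and reads helped to choose the pair, so this is a description only.

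GPBP1L1 had fewer reads, 88, divided over 7 clusters of 37 to 244 nt with a median of 80 nt. In the direction of transcription, the first, at 46126792 to 46126865, held 6 reads over 75 nt with a score of 4. The second, at 46126534 to 46126776, was the longest of the 7 and held 28 reads over 244 nt with a score of only 6. The third, at 46126403 to 46126524, held fewer reads, 19 over 123 nt, but the highest score of the gene, 11. These neighbours therefore ranked in opposite order by reads and by score.

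The fourth GPBP1L1 cluster, at 46126248 to 46126397, held 20 reads over 151 nt with a score of 6. The last 3, at 46126135 to 46126213, 46126087 to 46126125 and 46126005 to 46126040, held 9, 3 and 3 reads with scores of 4, 3 and 3. Reads thus thinned out towards the downstream end. In all, 4 of the 7 scored below the list median of 5, against 0 of the 3 GPBP1 clusters. Of all primary clusters, 23.4% scored below 4 and 63.3% below 6, so the share below 5 lies between these. Score was among the values behind the choice of the pair, so the counts are a description only. The smallest clusters were near the floor of the list, whose lowest read number and lowest score were both 2.

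**Figure D2:**
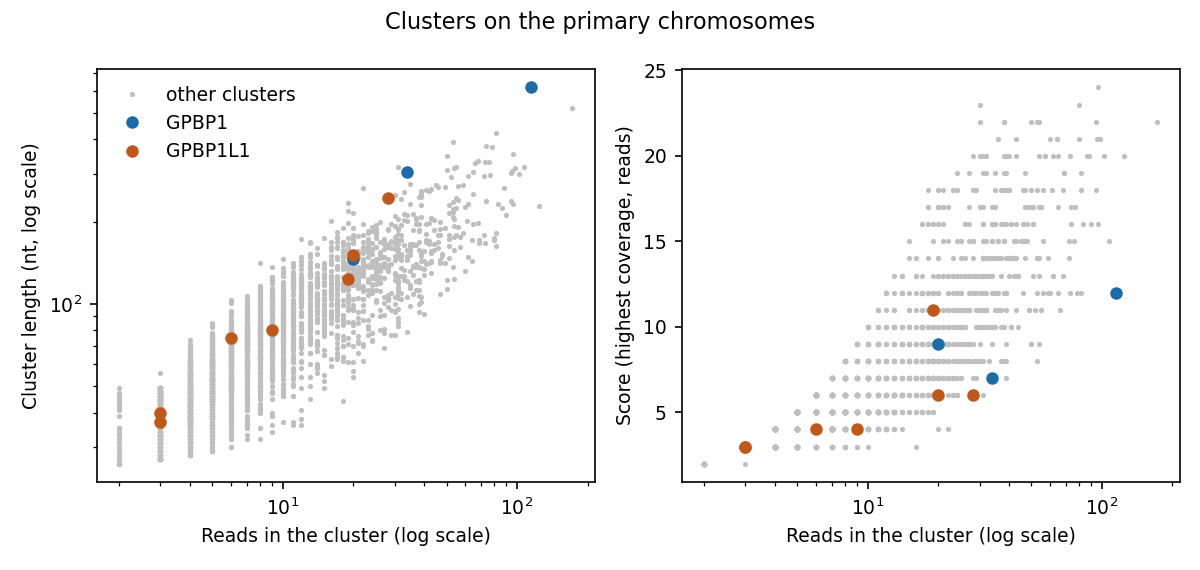
Reads per cluster against cluster length (left) and against score (right) for the 3566 clusters on the primary chromosomes; each point is 1 cluster, reads and length are on log scales. The 620-nt GPBP1 cluster stands at the top of the length axis but at a score of 12, below the other clusters with 90 or more reads.

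The clusters of each gene were divided by gaps of unequal number and width. The long GPBP1 cluster was separated from its downstream neighbour by 4 uncovered nt. The 6 gaps among the GPBP1L1 clusters measured 14, 8, 4, 33, 8 and 45 nt in the direction of transcription. The first GPBP1 cluster stood apart, 1246 nt upstream of the next. No listed cluster had fewer than 2 reads, so a lone 25-nt read in a gap would not be listed if it touched neither neighbour. Only the GPBP1L1 gaps of 33 and 45 nt, and the 1246 nt of GPBP1, are wide enough to hold one. The other 4 gaps of GPBP1L1 and the 4-nt gap of GPBP1 were shorter than a read.

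Joined across gaps of up to 50 nt, each gene had 1 stretch of nearly 1 kb. The GPBP1 stretch, 56471279 to 56472206, was 929 nt long and held 149 reads in 2 clusters. The GPBP1L1 stretch, 46126005 to 46126865, was 862 nt long and held 88 reads in 7 clusters. The stretches differed by 67 nt in length, although the median length of their clusters was 462.5 nt in GPBP1 and 80 nt in GPBP1L1. Of the 3170 stretches that the same joining gave over the primary chromosomes, these were the longest and the second longest, and the only ones of 800 nt or more. At this gap GPBP1L1 was also the only stretch of 7 or more clusters. Joining across up to 10 nt gave 0 such stretches, and across up to 1000 nt 5. By reads, the GPBP1 stretch had rank 2 and the GPBP1L1 stretch rank 15. The number, length and reads of the clusters helped to choose the pair. Neither the ranks by length and reads nor the count of clusters is therefore an independent result.

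**Figure D3:**
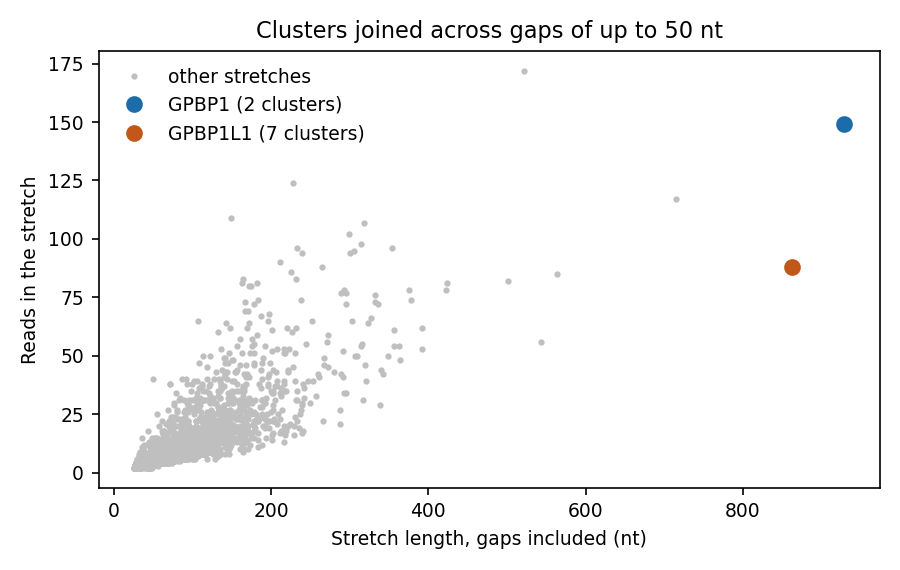
Length in nt, gaps included, against reads for each of the 3170 stretches obtained by joining clusters across gaps of up to 50 nt. The GPBP1 stretch (929 nt, 149 reads) and the GPBP1L1 stretch (862 nt, 88 reads) lie to the right of all others, the next of which reached 715 nt.

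The ranks depended on the gap allowed. With no joining, the longest GPBP1 cluster had rank 1 and the longest GPBP1L1 cluster rank 48. Gaps of up to 10 nt gave GPBP1 a single stretch of 929 nt and GPBP1L1 4 pieces, the longest of them 530 nt with 67 reads, and these already had ranks 1 and 2. Gaps of up to 100 nt changed neither rank. At up to 1000 nt the stretches kept their lengths but fell to ranks 23 and 33, behind clusters elsewhere that are joined across longer gaps. Shortened intervals elsewhere in the list could hide part of a stretch. With every such cluster extended on both sides by its unlisted length, the ranks at 50 nt were again 1 and 2.

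**Figure D4:**
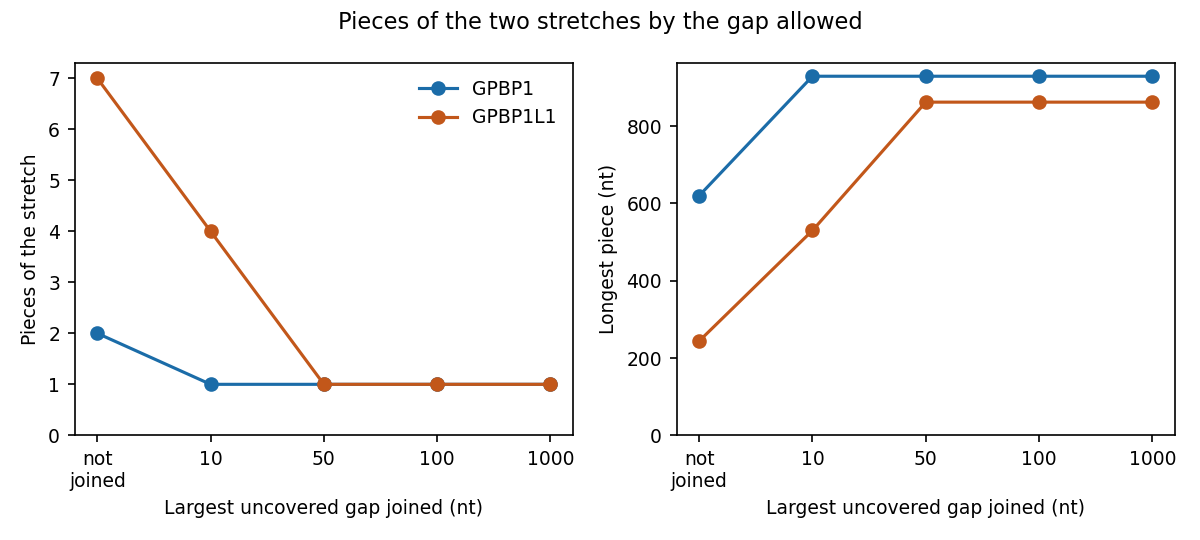
Number of pieces (left) and length of the longest piece in nt (right) of each stretch as the largest gap that is joined grows from none to 1000 nt. The pieces fall from 7 to 1 in GPBP1L1 and from 2 to 1 in GPBP1, and both are complete at 50 nt.

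The next longest stretches differed among themselves in density. The third, at 61764705 to 61765418 of chromosome 2, minus strand, had 5 clusters and 117 reads over 715 nt, or 16.4 reads per 100 nt. The fourth, at 32384696 to 32385258 of chromosome 1, minus strand, had 3 clusters and 85 reads over 564 nt, or 15.1 per 100 nt. The fifth, at 173793809 to 173794350 of chromosome 1, plus strand, had 6 clusters but only 56 reads over 543 nt, or 10.3 per 100 nt. The sixth, a single cluster of 522 nt on chromosome 1, minus strand, listed at 149814266 to 149814318, had 172 reads, or 33.0 per 100 nt. Densities of these 4 stretches thus ran from one near that of GPBP1L1 to one above that of GPBP1.

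Per length of the joined stretch, gaps included, GPBP1 carried 1.57 times as many reads as GPBP1L1. The first GPBP1 cluster is no part of its stretch. Over all listed clusters, gaps left out, GPBP1 held 169 reads in 1071 nt and GPBP1L1 88 reads in 750 nt, a smaller ratio. The GPBP1 stretch had 16.0 reads per 100 nt (exact Poisson 95% interval 13.6 to 18.8), and the GPBP1L1 stretch had 10.2 (8.19 to 12.6). The intervals cover counting error only, not the spread between cultures, and make no test, since read numbers and lengths helped to choose the pair. Of the 148 stretches of 200 nt or more, whose median was 16.1 reads per 100 nt, 76 were denser than GPBP1 and 123 denser than GPBP1L1. Joined stretches were measured by their listed intervals but counted with all reads of their profiles. Of the 4013 entries, 2093 were listed at full length, and shortened ones can raise the density of a stretch elsewhere. These counts therefore do not show that the pair was sparse for its length.

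The denser stretch was also the more continuous one. In GPBP1, 4 of 929 nt had no read in a listed cluster (0.431%), 110 nt were covered by 1 read, and 325 nt (35.0%) by 5 or more. In GPBP1L1, 112 of 862 nt had none (13.0%), 172 nt were covered by 1 read, and 109 nt (12.6%) by 5 or more. Mean coverage was 4.01 reads in GPBP1 and 2.55 in GPBP1L1. The part of read density in the number of gaps was not tested.

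**Figure D5:**
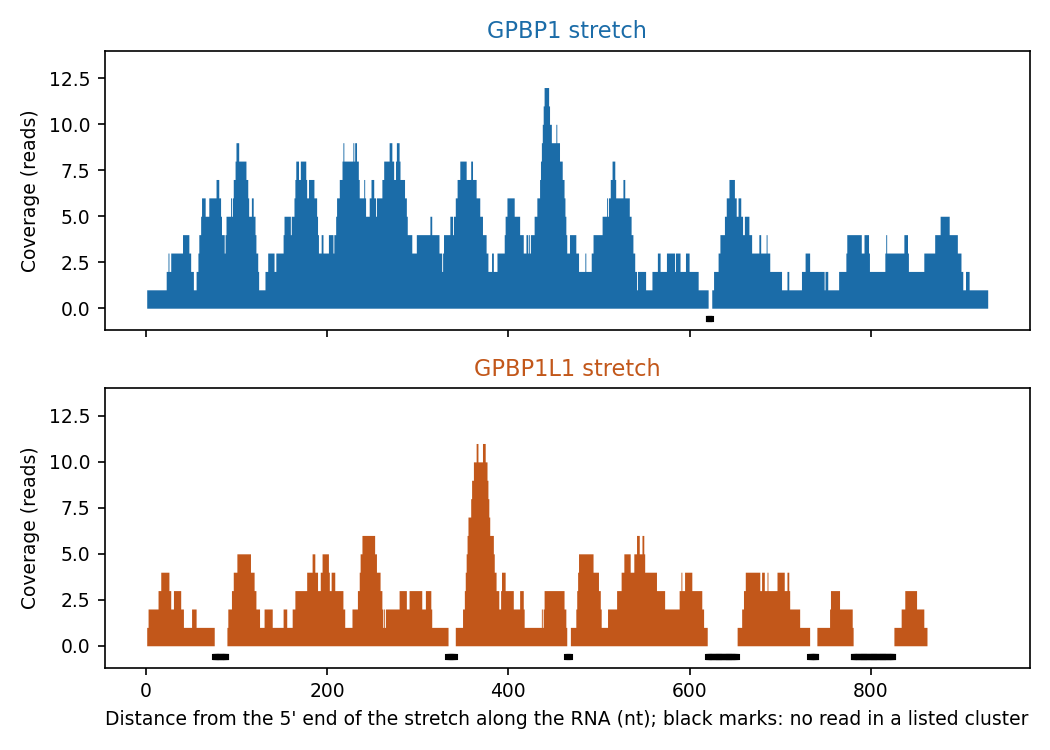
Read coverage along the RNA, in nt from the 5' end of each stretch, for GPBP1 (top) and GPBP1L1 (bottom) on the same axes; black marks show bases with no read in a listed cluster. Coverage is spread over several crests in GPBP1, with a highest value of 12, and GPBP1L1 has 1 crest of 11 above others of 6 or less.

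Neither stretch was a single peak. A crest was counted where coverage rose by at least 3 reads and then fell by at least 3. The long GPBP1 cluster had 10 crests, 22 to 78 nt apart (median 52 nt), with heights from 4 to 12. Its mean coverage was 4.64 reads, and how many such crests scatter of the reads alone would give was not tested. The highest lay 440 to 444 nt from the upstream end, and 36.3% of the cluster's length reached 50% of its score. The GPBP1L1 stretch had its highest crest 365 to 374 nt from the upstream end, in the third cluster, where a score of 11 was reached and only 23.6% of the cluster's length reached 50% of it. In the clusters on either side of it, upstream and downstream, 55.3% and 68.9% of the length did.

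For its reads, the long GPBP1 cluster had a low summit. The other 11 clusters of the list with 90 or more reads scored between 15 and 24, with a median of 20, and were 211 to 522 nt long. The second GPBP1L1 cluster showed the same at a smaller scale: 1 of the 41 other clusters with reads within 1 of its number was as long, 0 of them scored 6 or less, and their median score was 12. The fourth GPBP1L1 cluster scored 6, at or below which were 13 of 123 other clusters chosen in that way. The third GPBP1L1 cluster was ordinary in this respect, with 69 of 140 such others at least as long and a median score of 8 among them. The first GPBP1 cluster, with 20 reads, scored 9, the median of its 123 counterparts. Length, reads and score were among the values behind the choice of the pair, so these comparisons are a description only. At a given number of reads a longer cluster has a lower mean coverage, so a low summit and a great length are not separate traits.

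Along the RNA, reads were more frequent in the upstream part of the GPBP1 stretch. Its full 100-nt steps from the upstream end held 20, 15, 26, 21, 20, 13, 12, 10 and 11 read 5' ends. The 50% of the stretch nearest the upstream end held 97 of 149 reads, or 65.1% (95% Wilson interval 57.2 to 72.3). In GPBP1L1 the steps held 10, 11, 12, 16, 9, 15, 8 and 4, and the upstream 50% held 50 of 88 reads, or 56.8% (46.4 to 66.7). The lowest step of GPBP1L1 was the most downstream of its full steps. These intervals too cover counting error at best and take reads as independent. A read 5' end cannot lie in a gap, or nearer to the downstream end of a cluster than the length of a read. Such places are not spread evenly along the stretches, so 50% is no baseline for either share. Neither the shares nor the difference between the genes was tested, because read starts were among the values behind the choice of the pair.

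Read 5' ends, which in iCLIP mark the base beside the crosslink, were spread over many positions. All 257 reads of the pair began at a position of their own within their clusters, so the highest number of reads at a start was 1. This was a property of the whole list, in which 36841 of 36851 occupied starts held 1 read and the other 10 held 2, counting each profile on the primary chromosomes once. In the long GPBP1 cluster 115 of 596 possible starts were used (19.3%), and in the third GPBP1L1 cluster 19 of 99 (19.2%). The remaining 8 clusters used between 11.8% and 23.1%. Neighbouring read ends within a cluster were 1 nt apart in 32 of 166 cases in GPBP1 (19.3%) and in 17 of 81 in GPBP1L1 (21.0%). Over all primary clusters, counting each profile once, the share was 33.8% of 33752. The median spacing was 4 nt in GPBP1, 4 nt in GPBP1L1 and 3 nt in the list. The share depends on how densely starts are used, and the part of density in the difference was not tested.

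The direction of the profiles could be settled from the list, which matters for GPBP1L1 on the minus strand. Among clusters with 8 or more reads, 7 profiles were listed a second time in mirror image, and in all 7 the copy lay on the opposite strand, while 0 asymmetric profiles were listed unmirrored on both strands. Profiles therefore run along the chromosome, and those of GPBP1L1 were reversed to read in the direction of transcription.

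No copy of a read-start pattern was found in both paralogs. A 40-nt stretch of read starts was searched for at every other cluster of the list, in the direction of transcription. With at least 10 starts in the stretch, 54 patterns of GPBP1 and 6 of GPBP1L1 could be searched, and 0 were found elsewhere. With at least 5 starts, 133 and 44 could be searched, and again 0 were found at another cluster, the paralog included. The same search with 10 starts found 273 patterns at several clusters of the whole list, so such copies were visible where they occurred. Whole profiles of 8 of the 10 members were listed once only. The 2 GPBP1L1 clusters of 3 reads had profiles that also occurred at 4 and 1 other clusters, and a profile of 3 reads has little to tell it from another. Copies at places outside the list would not be seen. A search for copies cannot decide whether eIF3a contacts the paralogs alike, because patterns that are similar but unequal are not counted. Read starts were also among the values behind the choice of the pair.

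Around the pair the list was sparse on chromosome 5 and less so on chromosome 1. The nearest clusters outside the GPBP1 window on its own strand were 3613.4 kb to the left, with 12 reads, and 3768.8 kb to the right, with 10 reads. On the opposite strand the nearest was 1191.3 kb to the left. The nearest on the GPBP1L1 strand were 138.4 kb to the left, with 27 reads and a score of 16, and 471.2 kb to the right, with 3 reads. On the strand opposite to GPBP1L1 they were 76.2 kb to the left, with 27 reads, and 27.0 kb to the right, with 7 reads. The latter lay across the edge of the window. RefSeq orders the coding genes as MIER3, GPBP1, ACTBL2 on chromosome 5 and CCDC17, GPBP1L1, TMEM69 on chromosome 1. Together the 10 clusters held 0.669% of the 38419 reads in primary clusters.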

How the data were processed

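The submitters' processing notes name Bowtie and hg19 for the eIF3a libraries. Not given in the sources used here are the cluster caller, its filters, duplicate removal and whether the 2 replicates were pooled. The list has no header, and its units were read from its values. The signal that the authors deposited was made as the highest coverage of a cluster in whole reads, not normalized, and equalled the maximum of the coverage profile in all 4013 entries.

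Here, entries of 1 profile at 1 place were counted once (3604 clusters). Profiles were split into 25-nt reads, which was exact for all 3113 distinct profiles, and for 0 with reads of 24 or 26 nt. The splitting was checked on 200 simulated profiles, of which 200 were recovered. Stretches joined clusters on a strand. No p-value was computed. Members, gene pair, joining and comparisons were chosen with earlier results of these data known. The named genes were the pair, and other sites are given by position only. Python 3.11.15, numpy 2.4.6, pandas 2.3.3, scipy 1.17.1 and matplotlib 3.10.9 were used.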

Additional observations from a re-analysis of the deposited data

Results flagged for a closer look

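The GPBP1L1 window held a cluster on the opposite strand, which is outside the comparison because members were taken from the strand of the gene. It covered 46153866 to 46153933 of chromosome 1, plus strand, across the upstream edge of the window, with 7 reads over 69 nt and a score of 4. It was 27.0 kb from the nearest GPBP1L1 cluster. The GPBP1 window held no such cluster. TMEM69 follows GPBP1L1 on that side in the gene order of RefSeq, and the gene that the cluster belongs to was not analysed here.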

How the results depend on the processing

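The number of GPBP1 clusters was 3 as listed, 3 counted as entries or with scores at or above the list median, and 2 after joining across up to 10, 50, 100 or 1000 nt. The number of GPBP1L1 clusters, 7 as listed or as entries, fell to 3 at scores at or above the median, to 4 after joining across 10 nt, and to 1 at 50, 100 and 1000 nt, because fewer clusters pass or stay separate by construction. Reads were 169 and 88 for clusters and for entries alike. Read lengths of 24 and 26 nt gave no exact split and no value. Joining at 10, 100 and 1000 nt, and the ranks, were added after seeing the data. No paired analysis was possible because replicates are not separate in the list, and no replicate could be left out. Clusters of 3 reads limit what can be said of the downstream end of GPBP1L1.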
